A study of Mus musculus with 2 samples.

Results

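The claudins described here are Cldn1, Cldn2, Cldn3, Cldn4, Cldn5, Cldn6, Cldn7, Cldn8 and Cldn19, 9 of the 32285 genes counted, chosen by gene symbol. All 9 symbols were found in both gene tables, and the UMIs (unique molecular identifiers, each standing for 1 captured RNA molecule) of each were read across types of nuclei and across 2 ages. Single-nucleus RNA sequencing was done on whole mouse kidneys, with 1 library of the embryonic stage E18.5 and 1 of postnatal day 3 (P3). The E18.5 kidneys carried floxed alleles of Myc and Mycn (Mycf/f;Mycnf/f) without Cre on a mixed background, and the P3 kidneys were wild type, labelled C57BL/6J, whereas the methods of the study name a mixed one. Both libraries pooled kidneys of male and female mice, and neither was replicated, so there was no test between ages or types, and every interval below is a 95% interval that covers counting error only. Age, genotype, background, library and the Cell Ranger release named in the file headers changed together and cannot be told apart.

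Claudins are small proteins with 4 membrane-spanning stretches that form the strands of the tight junction, where neighbouring epithelial or endothelial cells meet. Each combination of claudins makes the path between cells tight or leaky to particular ions, and along the nephron that combination changes from segment to segment. Some claudins, such as claudin-2, form pores for cations and water, some pair up to let calcium and magnesium through, such as claudin-16 and claudin-19, and others seal the path.

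Most of the 9 genes are short and have little or no intron. In GENCODE M21 on GRCm38 (mm10), Cldn3 (chr5:134986214-134987472), Cldn4 (chr5:134945119-134946934), Cldn5 (chr16:18776847-18778262) and Cldn8 (chr16:88560828-88563183) are single exons with no intron. Cldn7 (chr11:69964779-69967885) has 1159 bases of intron, Cldn6 (chr17:23679249-23682446) 1477, Cldn19 (chr4:119255414-119262438) 2762, Cldn2 (chrX:139800828-139811386) 7234 and Cldn1 (chr16:26356642-26371841) 10359. The median intron length was 1159 bases over the 9 genes and 19019 over the 17127 genes tested that have a length. Cldn3 and Cldn4 lie 39280 bases apart on opposite strands, and Cldn6 ends 138 bases from Cldn9. Cldn3 overlaps Wbscr25 and Cldn19 overlaps Gm12927, each annotated on the opposite strand.

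The bases just before the transcription start are shown for Cldn2, the claudin of the proximal tubule, for the neighbours Cldn3 and Cldn4, of which Cldn4 was high in urothelium-like nuclei, and for Cldn5, the claudin of vessels and podocytes. Each run is the 160 bases before the RefSeq start on GRCm38.p6, 5′ to 3′ on the strand of the gene, with matches to TATAAA (the TATA box), TGANTCA (the AP-1 site), CACCTG (the Snail-type E-box) and AACCNGTT (the Grainyhead-type site), read on both strands, in capitals. The Cldn5 match reads on the opposite strand. GGGCGG (the GC box), found in 29.3% of promoters and in the windows of Cldn4 and Cldn5, was also searched and is not in capitals.
Cldn2 (chrX:139800648-139800807, plus strand): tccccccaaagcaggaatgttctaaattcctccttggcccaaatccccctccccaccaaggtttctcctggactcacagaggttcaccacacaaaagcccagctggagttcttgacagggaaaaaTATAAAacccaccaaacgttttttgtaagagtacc
Cldn3 (chr5:134986054-134986213, plus strand): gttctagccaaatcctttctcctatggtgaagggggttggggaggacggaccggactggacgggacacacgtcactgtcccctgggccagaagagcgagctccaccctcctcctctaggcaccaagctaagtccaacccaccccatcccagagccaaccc
Cldn4 (chr5:134946935-134947094, minus strand): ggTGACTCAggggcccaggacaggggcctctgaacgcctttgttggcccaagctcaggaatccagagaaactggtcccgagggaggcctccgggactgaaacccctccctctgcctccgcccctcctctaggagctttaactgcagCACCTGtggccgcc
Cldn5 (chr16:18776687-18776846, plus strand): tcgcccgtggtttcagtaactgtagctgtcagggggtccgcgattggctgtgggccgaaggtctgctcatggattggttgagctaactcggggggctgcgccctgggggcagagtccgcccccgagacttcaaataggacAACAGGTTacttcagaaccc

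Cldn2 held a TATA match 35 bases before its start, and 8.01% of the 32851 promoters in the table hold one in the same window. Cldn4 held the AP-1 match at 158 bases and the E-box match at 14 bases before its start, which 4.53% and 11.2% of promoters hold, and the window of its neighbour Cldn3 held none of the 4. Cldn5 held the Grainyhead-type match 20 bases before its start, found in 1.13% of promoters. A match is a run of letters and does not show that a factor binds there.

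After quality limits, 21270 nuclei with 77321253 UMIs were kept at E18.5 and 11765 nuclei with 70055219 UMIs at P3, and 69 barcode sequences occurred in both libraries. Nuclei were clustered without any claudin and without a list of 22 tight junction partners. Clusters were called X-like from at least 3 raised markers of a class. This gave 13 named classes of at least 50 nuclei at each age, 11 of them at both, which held 60.8% of nuclei at E18.5 and 73.8% at P3. The rest were mainly clusters that matched no class or several, among them clusters rich in called doublets, and 1 cluster per library of shallow barcodes raised in hemoglobin genes without Alas2, a gene of developing red cells. That of P3 was led by Hbb-bs and Hba-a1, and that of E18.5 by Camk1d and Igf2. These shallow hemoglobin barcodes numbered 2907 at E18.5, with a median of 1257 UMIs, and 1624 at P3, with a median of 976. The levels of the claudins in them are given below. Levels are given as CPM, the counts of a gene scaled to the total UMIs of the class, and are compared within 1 gene, not between genes.

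All 9 claudins were higher in the shallow hemoglobin barcodes than in all other nuclei at both ages. The ratio ranged from 1.69 for Cldn1 to 3.22 for Cldn5 at E18.5, and from 1.33 for Cldn19 to 3.80 for Cldn8 at P3. For Cldn19 at P3 the interval, 0.880 to 1.95, included no difference. The ratio was at least 2-fold for 8 of the 9 at E18.5 and 7 at P3, against 12.6% and 12.9% of the 17139 genes with at least 50 UMIs in each library. Among the 4282 genes with the shortest introns, at most 6276 bases and including 7 of the 9 claudins, the share was 34.7% at E18.5 and 31.3% at P3. Among the 4282 with the longest introns it was 0.747% and 3.06%. A low level of a claudin in a class is therefore set beside these barcodes and beside classes in which the gene has no known place, and the part of free RNA in it was not tested.

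**Figure D1:**
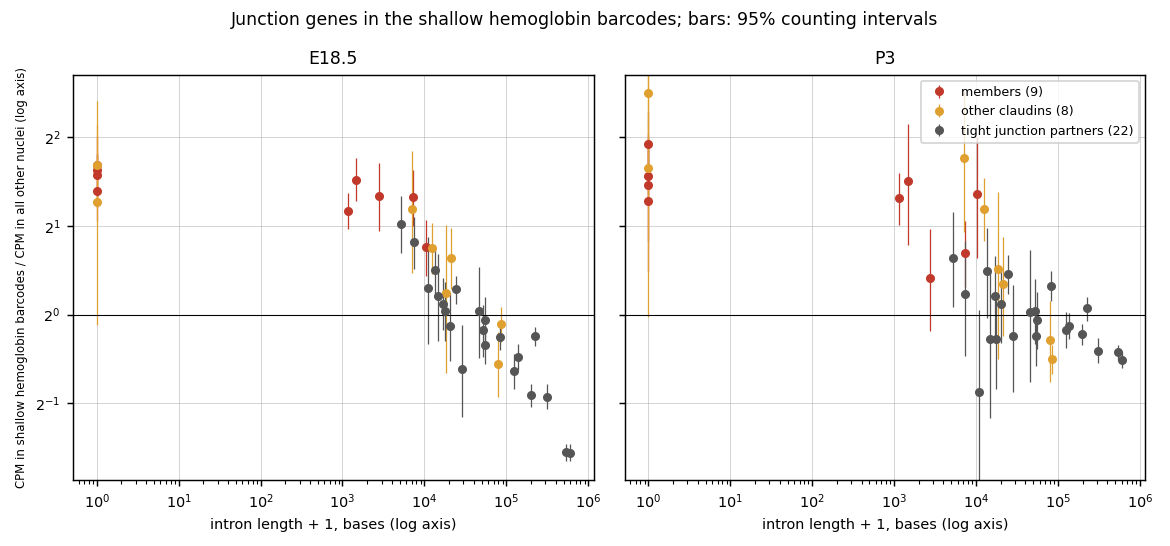
Ratio of CPM in the shallow hemoglobin barcodes to CPM in all other nuclei (vertical, log axis) against intron length plus 1 base (horizontal, log axis), for the 9 claudins, 8 other claudins and 22 tight junction partners with at least 50 UMIs in each library; bars are 95% counting intervals. The 9 claudins lie above 1 at both ages, and the partners have a median of 0.899 at E18.5 and 0.936 at P3.

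Cldn2 was highest in proximal tubule-like nuclei, Cldn19 in thick ascending limb-like nuclei, Cldn4 and Cldn7 in urothelium-like nuclei and Cldn1 in interstitium-like nuclei at both ages. The leading class, the one with the highest CPM among named classes of at least 50 nuclei, thus had the same name at both ages for 5 of the 9 claudins, against 39.2% of all genes tested. For Cldn7 at E18.5 the lead of the urothelium over the collecting duct was within counting error (1.14, 0.646 to 1.90), and urothelium led under 3 of 8 alternative settings. The lead of the interstitium for Cldn1 was within counting error at both ages. So was that of the urothelium over intercalated-like nuclei for Cldn4 at E18.5 (1.46, 0.345 to 7.02). The level in the leading class was at least 2-fold that in all other nuclei for 5 claudins at E18.5, where 52.3% of genes were, and for 7 at P3, where 60.7% were. Among the 7 was Cldn3, led by thin limb-like nuclei with 3 UMIs, whose ratio of 2.81 had an interval that includes no difference (0.576 to 8.32). The median ratio over the 9 was 2.32 at E18.5 and 5.17 at P3, and over all genes tested it was 2.08 and 2.34. The plot of levels by class shows each gene with its intervals.

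**Figure D2:**
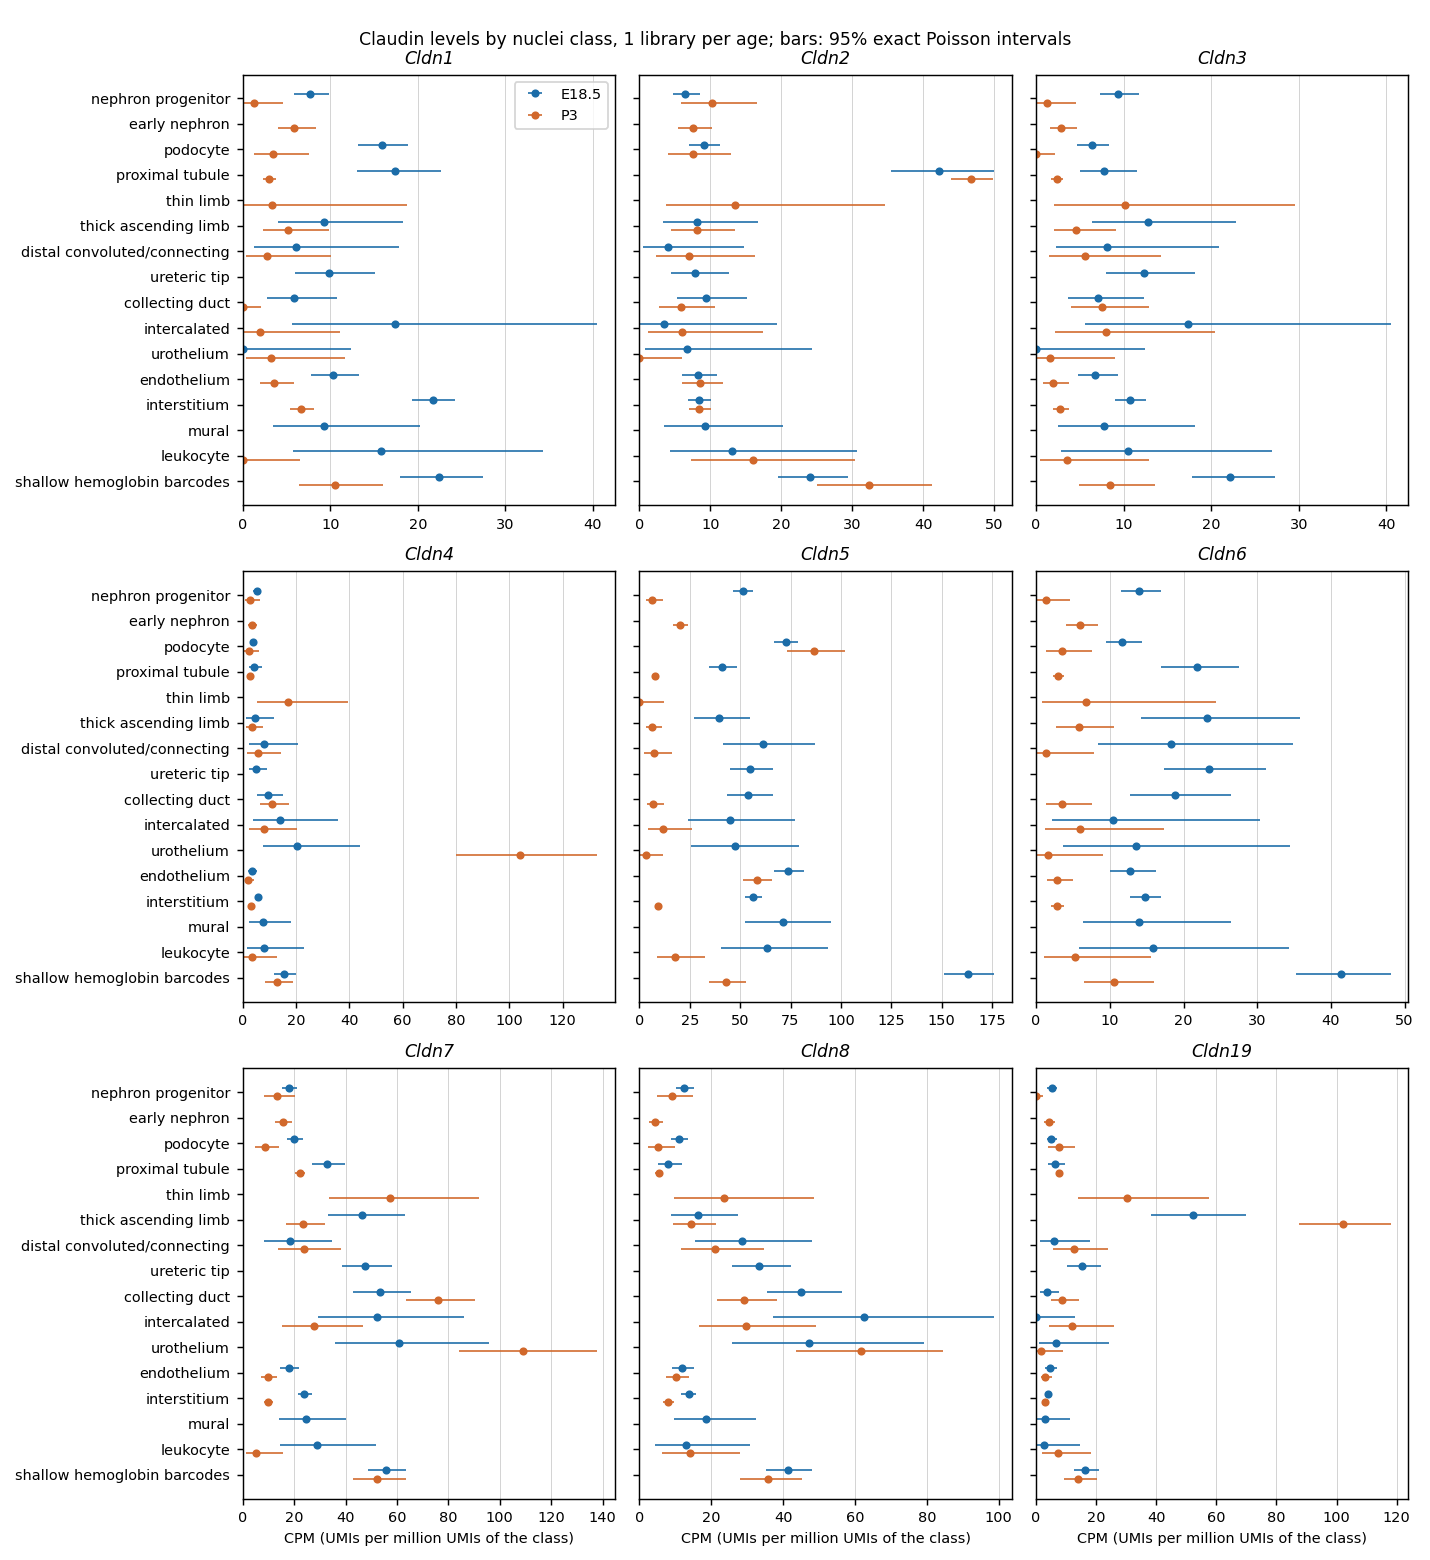
CPM (horizontal) of the 9 claudins in each class of at least 50 nuclei (vertical), in the E18.5 library (blue) and the P3 library (orange); points are levels and bars 95% exact Poisson intervals. Cldn2 is highest in proximal tubule-like nuclei and Cldn19 in thick ascending limb-like nuclei at both ages, Cldn4 reaches 104 CPM in urothelium-like nuclei at P3, and Cldn5 lies at 39.5 CPM or above in every named class at E18.5.

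Cldn2, the cation and water pore of the leaky proximal tubule, was read at 42.3 CPM in the 830 proximal tubule-like nuclei at E18.5 (136 UMIs, 35.5 to 50) and at 46.8 CPM in 2077 such nuclei at P3 (986 UMIs, 43.9 to 49.8). In interstitium-like nuclei, which are not known to make it, the level was 8.40 CPM at E18.5 and 8.46 CPM at P3. The proximal level was thus 5.03 times (3.89 to 6.52) and 5.53 times (4.57 to 6.74) the interstitial one. Every other named class of at least 50 nuclei lay between 3.47 and 13.1 CPM at E18.5 and between 0 and 16.0 CPM at P3, and the shallow hemoglobin barcodes held 24.1 and 32.4 CPM. Of genes tested, 9.13% at E18.5 and 9.34% at P3 were at least 2-fold higher in proximal tubule-like nuclei than in all others.

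A UMI of Cldn2 was found in 14.8% of the proximal tubule-like class at E18.5 (median 3708 UMIs) and in 33.6% at P3 (median 7710.0 UMIs), against 2.44% and 3.55% of interstitium-like nuclei (medians 2880.0 and 4092 UMIs). With every nucleus reduced at random to 1000 UMIs the shares were 4.12% and 5.15% in proximal tubule-like nuclei and 0.857% and 1.01% in interstitium-like nuclei. The unthinned shares of the ages thus lay further apart than those at equal depth. Thinning left out 4 and 1 proximal tubule-like and 24 and 4 interstitium-like nuclei with fewer UMIs.

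At P3 the proximal tubule-like nuclei fell into 4 clusters. Cldn2 was at 67.0 CPM in a cluster of 530 nuclei with Slc13a3 and G6pc among its leading genes, at 62.3 CPM in 350 nuclei led by Aadat and Slc7a12, and at 59.4 CPM in 413 nuclei led by Slc5a12 and Slc5a2. These 3 did not differ beyond counting error, with a ratio of 0.930 (0.757 to 1.14) for the second and 0.886 (0.723 to 1.08) for the last of them against the first. Cldn7 did differ between the same clusters, at 45.1 CPM in the Aadat cluster, 15.4 CPM in the Slc13a3 cluster and 8.94 CPM in the Slc5a12 cluster. The first of these was 5.04 times the last (3.25 to 8.11). The remaining cluster, 784 nuclei of which 93.0% were called doublets, held 34.5 CPM of Cldn2, and without clusters made mostly of called doublets the P3 level was 63.3 CPM.

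Cldn19, which with claudin-16 opens the thick ascending limb to calcium and magnesium, was at 52.2 CPM in the 235 thick ascending limb-like nuclei at E18.5 (45 UMIs, 38.1 to 69.9) and at 102 CPM in 334 such nuclei at P3 (177 UMIs, 87.5 to 118). In interstitium-like nuclei it was at 3.98 and 3.10 CPM, so that the limb was 13.1 times (8.63 to 19.9) and 32.9 times (23.5 to 46.8) as high. The shallow hemoglobin barcodes held 16.4 and 14 CPM. The distal convoluted and connecting tubule-like nuclei, the next segment along the nephron, held 6.11 CPM at E18.5 and 12.6 CPM at P3, a step of 8.54 times (2.74 to 43.0) and 8.10 times (4.17 to 18.0). Among genes tested, 7.34% at E18.5 and 6.78% at P3 were at least 2-fold higher in thick ascending limb-like nuclei than in all others. A UMI of Cldn19 was found in 17% of the limb nuclei at E18.5 and 39.5% at P3, and in 1.20% and 1.34% of interstitium-like nuclei (limb medians 3432 and 4709 UMIs). At 1000 UMIs per nucleus these shares were 5.98%, 10.8%, 0.510% and 0.402%.

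The thick ascending limb-like nuclei of P3 split into 2 clusters that both held Cldn19 and differed in Cldn16 and Cldn10. A cluster of 85 nuclei led by Casr (the calcium-sensing receptor) and Enox1 held Cldn19 at 125 CPM, and a cluster of 249 nuclei led by Slc12a1 and Ptger3 held it at 93.9 CPM, a ratio of 1.33 (0.954 to 1.85). Casr, Enox1 and Slc12a1 were raised in both clusters, so none of these genes alone sets them apart. Ptger3 was raised only in the larger cluster. Cldn16 was at 139 CPM in the Casr cluster and 35.7 CPM in the Ptger3 cluster, a ratio of 3.89 (2.61 to 5.82). Cldn10, whose kidney form in this segment makes a sodium pore, went the other way, at 24.6 and 254 CPM, a ratio of 0.0970 (0.0480 to 0.176). Of the 162 limb nuclei with a UMI of Cldn10, 24 also held Cldn16 (14.8%), and of those without Cldn10, 28.5% did. At E18.5 the same shares were 7.23% of 83 nuclei and 25% of the others. Both shares were read without thinning, and after thinning to 1000 UMIs 2 limb nuclei at P3 and none at E18.5 held both genes. After thinning to 2000 UMIs 7 nuclei at P3 and 3 at E18.5 held both, and Cldn16 was in 7.53% of nuclei with Cldn10 against 13% without it at P3, and in 5.36% against 12.2% at E18.5. For Cldn19 the shares lay closer. Cldn10 was found in 66 of the 132 P3 limb nuclei with Cldn19 and in 47.5% of those without it.

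**Figure D3:**
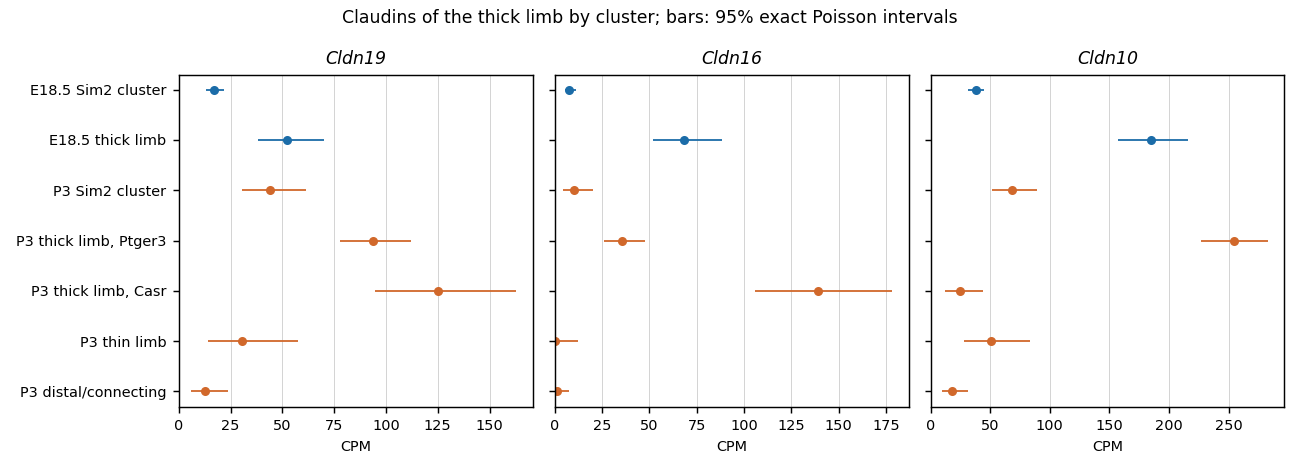
CPM (horizontal) of Cldn19, Cldn16 and Cldn10 in 2 clusters of E18.5 (blue) and 5 of P3 (orange); bars are 95% exact Poisson intervals. Between the Ptger3-led and Casr-led clusters of P3, Cldn16 goes from 35.7 to 139 CPM and Cldn10 from 254 to 24.6 CPM, while the intervals of Cldn19 overlap.

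Cldn19 was also read in nuclei that were not named thick ascending limb. A cluster led by Sim2, Nrcam, Lgr5 and Tfap2b was present at both ages, with 7 of its 10 leading genes in common, and was left unnamed, at E18.5 because another class scored nearly as high and at P3 because under 3 markers were raised. Cldn19 was at 17.1 CPM there at E18.5 (64 UMIs) and at 43.9 CPM at P3 (34 UMIs), 2.56 times as high (1.64 to 3.94). Another pair with 7 leading genes in common, led by Grid1 and Stxbp5l, was unnamed at E18.5 and early nephron-like at P3, and held 5.09 and 4.10 CPM. The Sim2 cluster exceeded the Grid1 cluster 3.37 times at E18.5 (1.90 to 6.36) and 10.7 times at P3 (4.17 to 35.1). Ureteric tip-like nuclei of E18.5 held 15.2 CPM of Cldn19, which was 4.32 times the level in collecting duct-like nuclei (1.78 to 12.7). At P3 the collecting duct-like cluster with Scnn1b and Scnn1g among its leading genes held 18.2 CPM (9.71 to 31.2) and the one led by Slc14a2 held 1.98 CPM. The ratio of the second to the first was 0.109 (0.0119 to 0.480) from 15 UMIs in all. The Scnn1b cluster had 5 of 12 collecting duct markers raised, against 10 in the Slc14a2 cluster. For it the distal convoluted and connecting tubule class scored 0.660 of the collecting duct class, so its name is less sure. The shallow hemoglobin barcodes held 16.4 CPM at E18.5 (12.7 to 20.9), near the Sim2 cluster and ureteric tip-like levels. At P3 they held 14 CPM, below the Sim2 cluster and within the interval of the Scnn1b cluster.

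Cldn4, a sealing claudin that raises resistance to cations, was highest in the urothelium-like nuclei of the P3 library. The 69 urothelium-like nuclei held it at 104 CPM (64 UMIs, 80.0 to 133), against 11 CPM in collecting duct-like nuclei and 3.10 CPM in interstitium-like nuclei. The urothelial level was 9.41 times that of the collecting duct (5.57 to 16.6) and 25.5 times that of all other nuclei (19.1 to 33.5), and 11.9% of genes tested were at least 2-fold higher in urothelium-like nuclei at P3. A UMI of Cldn4 was present in 28 of the 69 nuclei (40.6%, median 5782 UMIs), against 1.44% of interstitium-like nuclei (median 4092 UMIs), and at 1000 UMIs per nucleus the shares were 5.80% and 0.503%. At E18.5 the urothelium-like nuclei numbered 80 and held 6 UMIs of Cldn4, or 20.2 CPM (7.42 to 44.0), with 5 of 80 nuclei showing one. The shallow hemoglobin barcodes held 15.4 CPM at E18.5 and 13 CPM at P3. Collecting duct-like nuclei stood at 9.38 CPM at E18.5, and the ratio of 2.16 had an interval from 0.691 to 5.80.

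Cldn7 and Cldn8 were high across several classes of the ureteric tree. Cldn7, a claudin of distal and collecting epithelia, was highest in urothelium-like nuclei at both ages, with 60.7 CPM at E18.5 (18 UMIs) and 109 CPM at P3 (67 UMIs). Collecting duct-like nuclei followed with 53.3 and 76.1 CPM, which was 2.22 times (1.74 to 2.81) and 7.76 times (6.07 to 9.93) the interstitial level. The shallow hemoglobin barcodes held 55.7 CPM at E18.5, above the collecting duct-like level, and 52.3 CPM at P3, below it. Of genes tested, 7.89% at E18.5 and 7.53% at P3 were at least 2-fold higher in collecting duct-like nuclei than in all others. At E18.5 the next classes were intercalated-like at 52.1, ureteric tip-like at 47.6 and thick ascending limb-like at 46.4 CPM, and none of these 5 differed from its neighbour beyond the overlap of their intervals. The distal convoluted and connecting tubule-like nuclei held 18.3 CPM of Cldn7 at E18.5 (9 UMIs, 8.39 to 34.8), or 0.344 of the collecting duct level (0.152 to 0.682). By level this was a low point between thick limb and collecting duct, but its interval overlapped that of the limb (33.2 to 63.2). At P3 the same class held 23.8 CPM, or 0.312 of the collecting duct level (0.177 to 0.520). Thick ascending limb-like nuclei then held 23.6 CPM, so no low point between limb and collecting duct was read at P3. Thin limb-like nuclei, named only at P3, held 57.4 CPM from 17 UMIs.

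Cldn8, which with claudin-4 makes a path for chloride in the collecting duct, was at 62.5 CPM in intercalated-like nuclei (18 UMIs), 47.2 CPM in urothelium-like, 45.1 CPM in collecting duct-like, 33.3 CPM in ureteric tip-like and 28.5 CPM in distal convoluted and connecting tubule-like nuclei at E18.5. The intercalated level did not exceed that of the collecting duct beyond counting error (ratio 1.39, 0.780 to 2.34). At P3 the order changed at its head, with urothelium-like nuclei at 61.6 CPM, intercalated-like at 29.8 CPM and collecting duct-like at 29.0 CPM. The shallow hemoglobin barcodes held 41.3 CPM at E18.5 and 35.9 CPM at P3 (28.1 to 45.2), the latter above both the intercalated-like and collecting duct-like levels. The urothelium then exceeded the collecting duct 2.12 times (1.35 to 3.30). Cldn8 was low in proximal tubule-like nuclei at both ages, with 8.08 and 5.32 CPM.

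The urothelium-like nuclei of P3 formed 2 clusters that differed in these 3 claudins together. In 34 nuclei led by the uroplakin genes Upk1b and Upk1a, Cldn4 was at 123 CPM, Cldn7 at 129.6 CPM and Cldn8 at 76.4 CPM. In 35 nuclei with Trp63, a gene of basal urothelial cells, and Krt19 among their leading genes, they were at 59.7, 59.7 and 27.1 CPM. Trp63, Upk1b and Upk3a were raised in both clusters, so none of these genes alone sets them apart. Krt5 was raised only in the cluster with Krt19, and Upk1a, Upk2 and Psca only in the other. The ratios were 2.06 (1.06 to 4.36), 2.17 (1.13 to 4.60) and 2.82 (1.09 to 9.24), the last resting on 5 UMIs in the Trp63 cluster. The median depth was 10653 UMIs in the first cluster and 4700.0 UMIs in the second. Within the urothelium-like nuclei of P3, 15 of the 28 nuclei with Cldn4 also held Cldn7 (53.6%) and 14 held Cldn8, while of the nuclei without Cldn4 34.1% held Cldn7 and 12.2% held Cldn8. These shares were read without thinning, and deep nuclei hold more of every gene. At 1000 UMIs per nucleus 4 nuclei held Cldn4, and 1 of them held Cldn7 and 1 Cldn8. At 2000 UMIs Cldn7 was in 1 of the 9 nuclei with Cldn4 (11.1%, 0.281 to 48.2) and 21.4% of those without (11.6 to 34.4). Cldn8 was in 0 of the 9 (0 to 33.6) and 10.7% of those without (4.03 to 21.9). At E18.5, unthinned, none of the 5 nuclei with Cldn4 held Cldn7 and 21.3% of the others did. The intervals overlapped for the thinned shares and for those of E18.5, so these shares do not settle a direction. In collecting duct-like nuclei Cldn7 and Cldn8 were found together in 12 of 506 nuclei at E18.5 and 19 of 286 at P3. In the 2 collecting duct-like clusters of P3, Cldn4 was at 16 UMIs (15.9 CPM) in the Slc14a2-led one and 3 UMIs (4.21 CPM) in the Scnn1b-led one, a ratio of 3.77 (1.08 to 20.2), while Cldn8 stood at 28.7 and 29.5 CPM.

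Cldn3, a sealing claudin of many epithelia, was spread thinly. At E18.5 its named classes of at least 50 nuclei ran from 0 CPM in urothelium-like nuclei, where a count of 0 allows up to 10.1 CPM, to 17.4 CPM in intercalated-like nuclei, where it rested on 5 UMIs. Ureteric tip-like nuclei held 12.3 CPM and interstitium-like nuclei 10.7 CPM, and the shallow hemoglobin barcodes exceeded them all with 22.1 CPM. At P3 interstitium-like nuclei held 2.75 CPM, collecting duct-like nuclei 7.55 CPM and podocyte-like nuclei no UMI. Its highest level in a P3 cluster of over 100 nuclei was in 281 nuclei led by Slco4c1, Grik2 and Nrg3, which share 7 of 10 leading genes with the ureteric tip-like cluster of E18.5. There it was at 23.6 CPM (34 UMIs), 2.40 times the level in the Scnn1b-led collecting duct-like nuclei (1.05 to 6.42) and 1.92 times that of its counterpart at E18.5 (1.11 to 3.36). A cluster of 19 nuclei led by Muc16 and Pkhd1l1 at E18.5 held 77.0 CPM from 6 UMIs.

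Cldn5, the main claudin of endothelial barriers and also made by podocytes, stood above the other named classes in podocyte-like and endothelium-like nuclei at P3 and little above them at E18.5. At P3 podocyte-like nuclei held 86.9 CPM (150 UMIs, 73.5 to 102) and endothelium-like nuclei 58.2 CPM (246 UMIs, 51.2 to 66.0), while proximal tubule-like nuclei held 7.55, interstitium-like 9.03 and nephron progenitor-like 6.38 CPM. The highest of the other named classes were early nephron-like nuclei at 20.1 CPM (16.5 to 24.3), whose Nell1 and Uncx cluster held 26.5 CPM, and leukocyte-like nuclei at 17.8 CPM (8.54 to 32.7). The podocyte level was 9.62 times (7.55 to 12.3) and the endothelial level 6.45 times (5.19 to 8.05) the interstitial one. At E18.5 podocyte-like nuclei held 72.6 CPM and endothelium-like nuclei 74.0 CPM, but interstitium-like nuclei held 56.5 CPM and every other named class between 39.5 and 71.4 CPM. The same ratios to the interstitium were 1.28 (1.15 to 1.43) and 1.31, the latter with a lower bound of 1.16. Without clusters made mostly of called doublets, podocyte-like nuclei held 78.5 CPM at E18.5 and 107 CPM at P3. Endothelium-like nuclei of E18.5 then held 87.2 CPM. Of genes tested, 3.09% at E18.5 and 5.11% at P3 were at least 2-fold higher in podocyte-like nuclei than in all others, and 6.16% and 7.21% in endothelium-like nuclei.

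The level of Cldn5 in the shallow hemoglobin barcodes moved the same way, from 163 CPM at E18.5 to 42.9 CPM at P3. The ratio of Cldn5 to Cldn6 UMIs within a class gives a further reading that does not depend on totals. At E18.5 it was 3.94 in the shallow hemoglobin barcodes (3.32 to 4.70), 3.82 in interstitium-like (3.26 to 4.49), 3.66 in nephron progenitor-like (2.96 to 4.55) and 4.00 in leukocyte-like nuclei (1.59 to 12), which do not differ beyond counting error. It was 5.77 in endothelium-like (4.47 to 7.55), 6.18 in podocyte-like (4.94 to 7.79) and 5.11 in mural-like nuclei (2.47 to 11.9). It was lower in proximal tubule-like nuclei, at 1.89 (1.40 to 2.56), and in thick ascending limb-like nuclei, at 1.70 (0.951 to 3.12). Ureteric tip-like nuclei stood at 2.33 (1.65 to 3.34), collecting duct-like at 2.88 (1.90 to 4.44) and unnamed nuclei at 2.82 (2.51 to 3.18). The other named classes of at least 50 nuclei lay between 3.33 and 4.33. At P3 the ratio was 4.10 in the shallow hemoglobin barcodes (2.52 to 6.95), 3.20 in interstitium-like nuclei (2.23 to 4.69), 20.5 in endothelium-like (11.5 to 40.2) and 25 in podocyte-like nuclei (11.2 to 69.2). The ratio of Cldn5 to Cldn7 was also read. At E18.5 it was 2.92 in the shallow hemoglobin barcodes (2.50 to 3.41) and 2.35 in interstitium-like nuclei (2.06 to 2.69). The podocyte-like interval (3.01 to 4.33) overlapped that of these barcodes, unlike with Cldn6. Endothelium-like nuclei stood at 4.12 (3.30 to 5.19), and their interval overlapped that of these barcodes with Cldn7 and also with Cldn6. At P3 the Cldn7 ratio was 0.819 in these barcodes (0.609 to 1.10), 0.921 in interstitium-like (0.719 to 1.18) and 6.00 in endothelium-like nuclei (4.30 to 8.57). The pair of Cldn5 and Cldn6 was chosen after the levels had been seen, and the part of free RNA in the ratios was not tested.

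A UMI of Cldn5 was found in 24.0% of podocyte-like and 23.9% of endothelium-like nuclei at E18.5, beside 14.5% in the proximal tubule-like class, and in 39.9%, 18.6% and 6.79% at P3. Thinned to 1000 UMIs, the shares were 6.5%, 7.13% and 4.96% at E18.5 and 9.19%, 5.96% and 1.06% at P3. Depth differed, with medians of 3401, 3142 and 3708 UMIs at E18.5 and 5037, 3766 and 7710.0 UMIs at P3. The class named podocyte at E18.5 held a cluster of 1041 nuclei that rested on 3 of 11 podocyte markers and was led by Ndnf and Wt1, with Cldn5 at 74.5 CPM, beside 529 nuclei with all 11 markers at 87.3 CPM (ratio 0.853, 0.694 to 1.05).

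Among endothelial clusters, 1 at each age had all 6 arterial markers raised, including Gja5, Sox17 and Bmx, and in both Cldn5 was higher than in the other endothelial nuclei. At E18.5 these 47 nuclei held 153 CPM (21 UMIs), 2.13 times the 72.0 CPM of the others (1.30 to 3.30). At P3, 49 nuclei held 112 CPM (21 UMIs), 2.01 times the 55.7 CPM of the others (1.22 to 3.15). The others include clusters made mostly of called doublets, which held 37.5 to 64.8 CPM at E18.5 and 15.3 to 49.4 CPM at P3. Ratios without these clusters, against a higher level of the others, were not computed. Above the arterial cluster at P3 was one of 93 nuclei led by Pcdh17, Vash1 and Lrrc3b, with 156 CPM (55 UMIs). Below it was one of 188 nuclei led by Nlgn1, Tek and Emcn, with 31.8 CPM. The ratio of these was 4.89 (2.96 to 8.34). These clusters were named for their Cldn5 values. Over the whole classes podocyte-like nuclei exceeded endothelium-like nuclei 1.49 times at P3 (1.21 to 1.84).

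**Figure D4:**
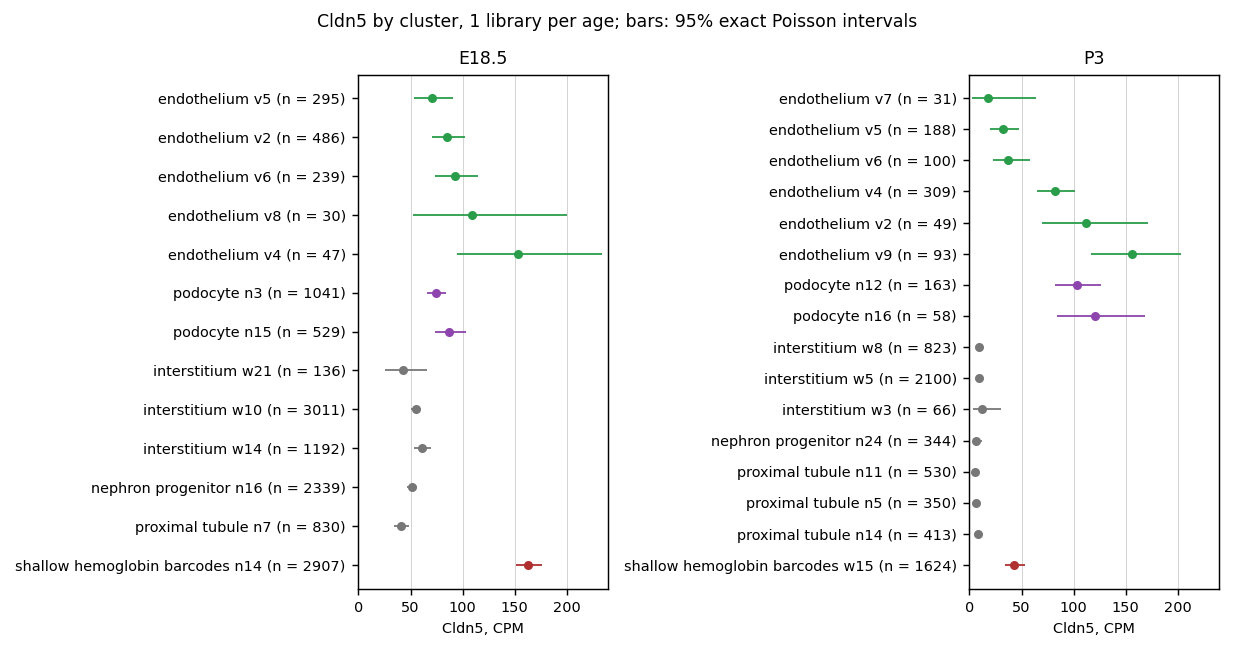
Cldn5 in CPM (horizontal) by cluster (vertical; v, n and w with a number name clusters within a library, n is the number of nuclei), for clusters of 6 classes with at least 20 nuclei and at most 50% called doublets; green marks endothelium-like, purple podocyte-like, grey interstitium-like, nephron progenitor-like and proximal tubule-like clusters and red the shallow hemoglobin barcodes, and bars are 95% exact Poisson intervals. The grey clusters lie between 41.0 and 61.1 CPM at E18.5 and between 5.77 and 12 CPM at P3.

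Cldn1, best known from the epidermal barrier and from parietal cells of the glomerular capsule, was highest in interstitium-like nuclei in these libraries, with 21.7 CPM at E18.5 (289 UMIs, 19.3 to 24.3) and 6.70 CPM at P3 (95 UMIs, 5.42 to 8.19). Its lead over the next class was within counting error at both ages, at 1.25 times proximal tubule-like nuclei at E18.5 (17.4 CPM, 0.933 to 1.69) and 1.14 times early nephron-like nuclei at P3 (5.89 CPM, 0.752 to 1.77). Against the low level of nephron progenitor-like nuclei at E18.5 it was 2.81 times as high (2.13 to 3.77). Of its 289 UMIs there, 179 were in 1 cluster of 1192 nuclei led by Gria1 and Ntn1. That cluster held 49.0 CPM (42.1 to 56.8), 4.61 times the 10.6 CPM of the 3011 nuclei led by Epha3 (3.58 to 5.96). The shallow hemoglobin barcodes of E18.5 held 22.4 CPM. At P3 the interstitium-like clusters held between 0 and 7.49 CPM. The Ndnf-led cluster of the podocyte class at E18.5 held 20.7 CPM, against 12.8 CPM in the cluster with all podocyte markers (1.61, 0.981 to 2.75). At P3 the Casr-led thick limb cluster held 13.4 CPM from 6 UMIs and the Grid1-led cluster 12.3 CPM from 15 UMIs.

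Cldn6, a claudin of embryonic epithelia that is silent in most adult tissue, ran from 10.4 to 23.5 CPM over the named classes of at least 50 nuclei at E18.5, below the 41.3 CPM of the shallow hemoglobin barcodes. Ureteric tip-like nuclei held 23.5 CPM, thick ascending limb-like 23.2 CPM and proximal tubule-like 21.8 CPM, and the first and last of these exceeded interstitium-like nuclei 1.59 times (1.14 to 2.19) and 1.47 times (1.10 to 1.94). At P3 the named classes of at least 50 nuclei lay between 1.28 and 6.75 CPM. The highest cluster with at least 10 UMIs was the Grid1-led one, with 15.6 CPM (19 UMIs), 6.68 times the level of another cluster of the same early nephron-like class, 563 nuclei led by Nell1 and Uncx (2.79 to 17.6). The same Grid1 cluster exceeded that cluster 3.78 times for Cldn7, 3.25 times for Cldn1 and 3.52 times for Cldn2, and fell below it for Cldn5, at 9.02 against 26.5 CPM.

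Between the ages, 4 of the 9 claudins were at least 2-fold apart in the class with their highest mean level, against 24.4% of genes tested, with 3 lower at P3 (14.8% of genes) and 1 higher (9.59%). Cldn1 in interstitium-like nuclei was at 0.309 of its E18.5 level at P3 (0.242 to 0.391), Cldn6 in thick ascending limb-like nuclei at 0.248 (0.104 to 0.556) and Cldn3 in intercalated-like nuclei at 0.458, with an interval of 0.0908 to 2.13 that includes no change. For Cldn1 the E18.5 level rested mostly on the Gria1 and Ntn1 cluster, with Foxd1 and Ntn1 raised, at 49.0 CPM, beside 10.6 CPM in the Epha3 cluster. The larger interstitium-like clusters of P3, at 7.49 and 4.61 CPM, had neither marker raised. The class ratio for Cldn1 thus does not compare matched clusters. Cldn4 in urothelium-like nuclei was 5.13 times as high at P3 (2.23 to 14.5). Cldn19 in thick ascending limb-like nuclei was 1.95 times (1.40 to 2.77) and Cldn7 in urothelium-like nuclei 1.79 times as high (1.05 to 3.20). Cldn5 in podocyte-like nuclei stood at 1.20 (0.993 to 1.44) and Cldn8 in urothelium-like nuclei at 1.31 (0.692 to 2.61). Cldn2 in proximal tubule-like nuclei stood at 1.11 (0.925 to 1.34), but at 2.28 when called doublets were removed before clustering, where the E18.5 class gained nuclei and fell to 28.9 CPM.

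Cldn1, Cldn3, Cldn5 and Cldn6 were lower at P3 in most classes, as were Cldn4, Cldn7 and Cldn8. For Cldn4 and Cldn8 most of the intervals included no change. Genes at large leaned the same way in several classes. The median ratio over genes with at least 10 UMIs at either age was 0.790 in podocyte-like nuclei and 0.882 in endothelium-like nuclei. It was 1.08 in proximal tubule-like nuclei. The share of all genes lower in as many classes was not counted. Cldn6 was lower at P3 in 11 of the 11 classes named at both ages, and the interval excluded no change in 8. Cldn5 was lower in 10, with the interval below 1 in all of these 10, and the exception was podocyte-like nuclei. Cldn1 was lower in 10 classes and Cldn3 in 9, with intervals below 1 in 7 and 6. Cldn4 and Cldn8 were lower in 9 and Cldn7 in 8, with intervals below 1 in 1, 3 and 6. The interval lay above 1 in 1 class for Cldn4 and in 2 for Cldn7. Cldn2 was lower in 4 and Cldn19 in 4. Over all nuclei, Cldn1, Cldn3, Cldn5 and Cldn6 were at least 2-fold lower at P3, at 0.311, 0.397, 0.271 and 0.247 of the E18.5 level, against 8.67% of genes tested, and none of the 9 was at least 2-fold higher, against 3.86%. The median over all genes tested was 0.924. In interstitium-like nuclei, where 17725 genes with at least 10 UMIs at either age had a median ratio of 0.880, Cldn5 stood at 0.160, Cldn6 at 0.191, Cldn3 at 0.258 and Cldn7 at 0.408, and Cldn2 at 1.01. In the shallow hemoglobin barcodes Cldn1 was lower too, at 22.4 and 10.5 CPM, and Cldn3 at 22.1 and 8.48. Cldn5 was at 163 and 42.9 CPM there and Cldn6 at 41.3 and 10.5. The part of free RNA in the differences was not tested.

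**Figure D5:**
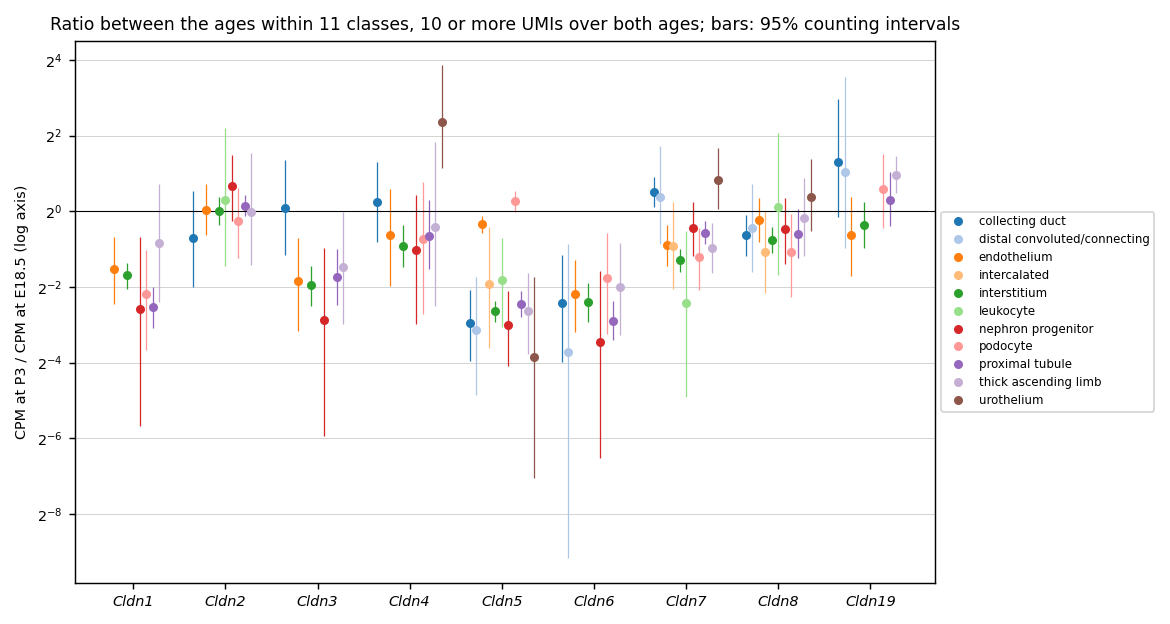
Ratio of CPM at P3 to CPM at E18.5 (vertical, log axis) within the 11 classes named at both ages (colours), for classes with at least 10 UMIs of the gene over both ages and a ratio above 0; bars are 95% counting intervals. Cldn5 and Cldn6 lie below 1 in every class shown apart from Cldn5 in podocyte-like nuclei, and Cldn4 lies above 1 in urothelium-like nuclei.

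Of the 23 other claudins in the gene table, 8 had at least 50 UMIs in each library. The leading class was the same at both ages for 7 of these 8, against 39.2% of genes tested. Cldn10 was led by proximal tubule-like nuclei with 389 and 586 CPM (1.5 times as high at P3, 1.42 to 1.60), and Cldn16 by thick ascending limb-like nuclei with 68.5 and 62.2 CPM. Cldn11 was led by interstitium-like nuclei with 34.0 and 39.0 CPM, and Cldn15 by endothelium-like nuclei with 6.41 and 14.7 CPM (2.29, 1.49 to 3.57). At E18.5 the lead for Cldn15 over mural-like nuclei, at 6.21 CPM, was within counting error (1.03, 0.369 to 4.00). The unnamed cluster of 19 nuclei led by Muc16 and Pkhd1l1 at E18.5 held Cldn15 at 103 CPM from 8 UMIs (44.3 to 202). Cldn23 was led by urothelium-like nuclei at P3 with 38.9 CPM, 58.8 times the level of all other nuclei. Cldn9, the neighbour of Cldn6, fell with it over all nuclei, at 0.212 of its E18.5 level (0.158 to 0.281). Cldn12 was led by proximal tubule-like nuclei at both ages and Cldn34c1 by nephron progenitor-like nuclei.

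Of 22 tight junction partners, all tested, 12 had the same leading class at both ages, against 39.2% of genes tested. In the leading class 20 were at least 2-fold higher than in all other nuclei at E18.5, where 52.3% of genes were. At P3, 21 were, against 60.7% of genes, and the median ratio was 3.37 at both ages. Between the ages within the leading class, 1 was at least 2-fold apart, against 24.4% of genes tested. It was Ildr2 in podocyte-like nuclei, with 108 and 275 CPM (2.55, 2.28 to 2.86). Over all nuclei none of the 22 was at least 2-fold apart, where 8.67% of genes were lower and 3.86% higher at P3. Ildr1, which seals the corners where 3 cells meet, was led by urothelium-like nuclei with 182 and 193 CPM, and Esam and Jam2, adhesion proteins of vessels, by endothelium-like nuclei with 74.0 and 71.0 CPM and with 36.3 and 47.3 CPM. Esam in endothelium-like nuclei stood at 6.36 times all other nuclei at E18.5 and 12.9 times at P3. In the shallow hemoglobin barcodes the partners had a median ratio of 0.899 at E18.5 and 0.936 at P3, and the 9 claudins 2.63 and 2.56.

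The genes most like each claudin over the 77 clusters of at least 20 nuclei of both libraries were found by Pearson correlation of log2(CPM + 10). This is a description without a test, since clusters of a library share its depth and free RNA. The 77 include the shallow hemoglobin barcodes and clusters made mostly of called doublets. Over all nuclei Cldn1, Cldn3, Cldn5 and Cldn6 stood at 0.311, 0.397, 0.271 and 0.247 of the E18.5 level at P3. The part of such differences between the libraries in the correlations was not tested. Cldn2 was most like Gsta2 (0.866), Slc22a30 (0.850) and Slc5a11 (0.850), and Cldn19 most like Slc12a1, the sodium, potassium and chloride cotransporter of the thick limb (0.832), 4732465J04Rik (0.824) and Gm14002 (0.808). Cldn4 was nearest to Plch2 (0.804), Krt19 (0.799) and Sfn (0.797), and Cldn5 to Cd81 (0.806), Podxl (0.792) and Vim (0.782). Cldn7 was nearest to Esrp1 (0.763), Epcam (0.763) and Dsg2 (0.746), and Cldn8 to Slc35g1 (0.734), Ermp1 (0.732) and Krt18 (0.723). Cldn6 was nearest to Atp5o (0.817), Tmem147 (0.811) and Pdia6 (0.808), genes used by every cell, and Cldn3 to Cldn6 (0.670), Pin4 (0.644) and Chchd1 (0.643). Cldn1 was nearest to Lsm3 (0.652), Sub1 (0.648) and Dkk1 (0.645).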

How the data were processed

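The authors deposited counts: whole numbers of UMIs per gene and barcode, without normalization, made with Cell Ranger. In the headers, the E18.5 files carry release 7.0.0 and the P3 files 5.0.1, whereas the submitters' processing notes name 5.0.1 and mm10. Whether intronic reads were counted is not given in the sources used here. Totals were 77688411 UMIs in 21600 barcodes at E18.5 and 70559806 in 12216 at P3.

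Barcodes over 3 median absolute deviations below the median of log UMIs or genes, or above the mitochondrial limit, were removed. Scrublet, run through scanpy 1.11.5, marked doublets (expected rate 0.1; 16.6% and 17.4% called) and kept. Each library was normalized with scran 1.30.0 in R 4.3.3. Claudins and the 22 listed tight junction partners were left out of the 2000 variable genes. From these, 50 principal components and a graph of 10 neighbours gave Walktrap clusters (bluster 1.12.0, igraph 2.1.4). Nephron, ureteric and unnamed nuclei, and endothelial nuclei, were clustered again. A marker was raised with at least 10 UMIs and 2-fold the level of other nuclei, 10 CPM being added to both. A cluster stayed unnamed if a second class scored over 0.8 of the first. Clusters raised in hemoglobin genes without Alas2, with a median depth under 0.5 of the library's, were set aside as shallow hemoglobin barcodes.

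Sums of UMIs per class were compared with exact Poisson and exact conditional binomial intervals, and shares of nuclei with exact Clopper-Pearson intervals, after thinning to 1000 UMIs, shallower nuclei left out, where stated. PCR and capture error are not in these intervals. A count of 0 was given the level of 3 counts as its limit. The ratio intervals and the choice of the leading class were tried on simulated Poisson counts, the model that the intervals assume. Clustering, naming, thinning and free RNA were not tested in this way. Genes named are the 9 claudins, other claudins and partners with at least 50 UMIs, the 3 genes most like each claudin, class markers and leading genes of clusters. The members, lists and rules were chosen with earlier results of these data known, and the naming rules, the limit of 50 nuclei for a leading class and the ratio of Cldn5 to Cldn6 after clusters or values were seen. Gene structures came from GENCODE M21 and promoters from RefSeq, which held 10 for 8 of the 9 claudins. Cldn8 was not among them. Analyses used Python 3.11.15, numpy 2.4.6, scipy 1.17.1 and pandas 2.3.3. Alternatives were removal of called doublets, Leiden clusters, 20 neighbours, linear quality limits, nuclei with at least 2000 UMIs, means over nuclei, gating on markers, claudins left in the clustering and a 3-fold limit.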

Additional observations from a re-analysis of the deposited data

Results flagged for a closer look

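Cldn6 in proximal tubule-like nuclei was above the level of all other nuclei at E18.5 and below it at P3. The ratio was 1.40 at E18.5 (1.09 to 1.79) and 0.683 at P3 (0.506 to 0.911), so the single library of each age went the opposite way. The difference between the ages was not tested, since each age has 1 library. All other nuclei include the shallow hemoglobin barcodes, at 10.5 CPM at P3. Against single classes at P3 the intervals included no difference, with ratios of 1.04 to interstitium-like (0.690 to 1.59) and 0.847 to podocyte-like nuclei (0.368 to 2.40).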

How the results depend on the processing

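No paired analysis was possible because each age has 1 library. The number of claudins with a leading class of the same name at both ages was 5 and became 3 with Leiden clusters. The number at least 2-fold higher in the leading class at E18.5 was 5 and became 3 when nuclei were gated one by one on markers. The number at least 2-fold apart between the ages was 4 and became 7 without called doublets and 2 with gating. The other alternatives for these counts, 3 of them chosen after the data were seen, stayed within 1.5 times. Of 376 further values under alternatives, 313 stayed within the counting interval of the main value and 63 did not. Shares of nuclei read at another depth made up 26 of the 63. Only ratios, 127 between classes and 69 between the ages, could turn direction, and none that was at least 2-fold did. Values were left out where the class was not among those named with at least 50 nuclei under an alternative. The leading classes of Cldn2 and Cldn19 were the same under all 8 alternatives at both ages, and that of Cldn5 at P3. The leading class of Cldn6 was the same under 1 of 8 at E18.5 and 3 of 8 at P3, and that of Cldn7 at E18.5 under 3 of 8, with collecting duct-like or thick ascending limb-like nuclei otherwise. Cldn5 at E18.5 was led by endothelium-like nuclei under 4 and by podocyte-like nuclei under the others. The cause of these changes was not tested. Depth limits Cldn3 at both ages, Cldn4 at E18.5 and Cldn6 at P3, whose leading levels rest on 6 UMIs or fewer.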
